A study of Drosophila melanogaster with 12 samples.

Results

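The measurement described here is how the difference between the cold and the warm phase of a day changed between a day of thermocycle and the following day at constant temperature, in heads of Drosophila melanogaster without a working circadian clock. For each probe set, the mean of the AA subjective warm phase was subtracted from that of the AA subjective cold phase, and the result was subtracted from the same difference of the CA day (cold phase minus warm phase). This difference of differences is called the interaction below and is given on the log2 scale, where 1 is a doubling. A positive interaction says that the signal of the cold phase stood higher, relative to that of the warm phase, on the CA day than on the AA day. All 12 of the 12 arrays of the series enter it, with 13966 of 14010 probe sets, the other 44 being controls of the array, and the probe sets carrying a gene symbol stood for 10844 genes.

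The flies were adults of the genotype y w; tim01 on every array, in constant darkness on both days. They were raised in darkness at 25 °C, moved to the thermocycle as early pupae and kept in it for several days after eclosion. On the CA day, 12 h at 18 °C were followed by 12 h at 25 °C, with hour 0 at the onset of 18 °C. The 4 groups were the CA cold phase (2, 6 and 10 h, at 18 °C), the CA warm phase (14, 18 and 22 h, at 25 °C), the AA subjective cold phase and the AA subjective warm phase (the same hours of the next day, all at 25 °C). Both warm phases were thus sampled at the same temperature, and what differs between them is the temperature of the hours before and the day. Each array is 1 hour of 1 day, made from pooled heads that were sieved from broken frozen flies, so fragments of other body parts can reach an array. The 3 arrays of a group are 3 different hours, so the spread within a group, given as SD, holds any change within the phase along with the noise of sampling. Nothing in the labels says that the arrays came from separate cultures, and the p values measure the spread between these samples, which may be technical. Arrays of flies with a running clock were not analysed here, so the part of the mutation in any value below was not tested.

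The Drosophila clock is a loop in which CLOCK and CYCLE activate the genes per, tim, vri and Pdp1, and the PER and TIM proteins shut this activation off. The transcription factors VRI and PDP1 repress and activate the Clock gene (Clk) in turn. The tim01 allele makes no working TIM protein, and flies that carry it lose free-running rhythms. Temperature also acts on transcripts without the clock: chaperones of the heat shock family are induced by heat, and the flux through glycolysis and lipid stores follows temperature and feeding in an animal that cannot regulate its own body heat.

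The arrays had medians between 5.18 and 5.22, and 9 spike-in controls averaged 7.91 on the CA 18-h array and 8.65 to 9.13 on the other 11. The highest correlation of the CA 18-h array with another array was 0.990, while each of the others reached at least 0.994 with some array. For this reason values without the CA 18-h array are given below for many of the results. The measured markers of photoreceptors, neurons and glia lay above the 20th percentile of every array, except the neuronal gene para, which did so on 9 of the 12. The neuronal markers elav, nSyb and brp averaged 5.74, 6.62 and 5.53. The photoreceptor arrestins Arr1 and Arr2 averaged 11.4 and 12.1, the light-gated channel trp averaged 9.44 and the glial glutamine synthetase Gs2 averaged 10.4. Quantile normalization had given all arrays nearly the same distribution of values, so a shift shared by most transcripts cannot be seen. In whole heads, fewer cells of a type and less RNA per cell cannot be told apart.

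No probe set passed an adjusted p of 0.05 for the interaction in limma's fit of the 4 group means (0 of 13966, 0%), and the lowest adjusted p was 0.252. At an unadjusted p under 0.05 there were 1104 probe sets (7.9%), 624 of them positive and 480 negative. The genes below are therefore described by their values on each array and are not called changed. The interaction can also be written as the difference between the days in the cold phase minus the difference between the days in the warm phase. In the cold phase (18 °C on CA, 25 °C on AA), limma found 494 probe sets at an unadjusted p under 0.05 (3.54%) and 0 (0%) after adjustment, with a lowest adjusted p of 0.135. In the warm phase, with both days at 25 °C, it found 2035 (14.6%) at an unadjusted p under 0.05 and 2 (0.0143%) after adjustment. The count of the warm phase was the larger with each array left out in turn, at 1298 to 2654 against 365 to 799 for the cold phase, and without the CA 18-h array the counts were 1368 (9.8%) and 579 (4.15%). For the interaction, 939 probe sets (6.72%) were under 0.05 without the CA 18-h array. Of the 10844 genes, 336 were then positive and 359 negative, the background for list counts given below without that array. Over all tested probe sets, the median size of the difference between the days was 0.09 in the warm phase and 0.06 in the cold phase.

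**Figure D1:**
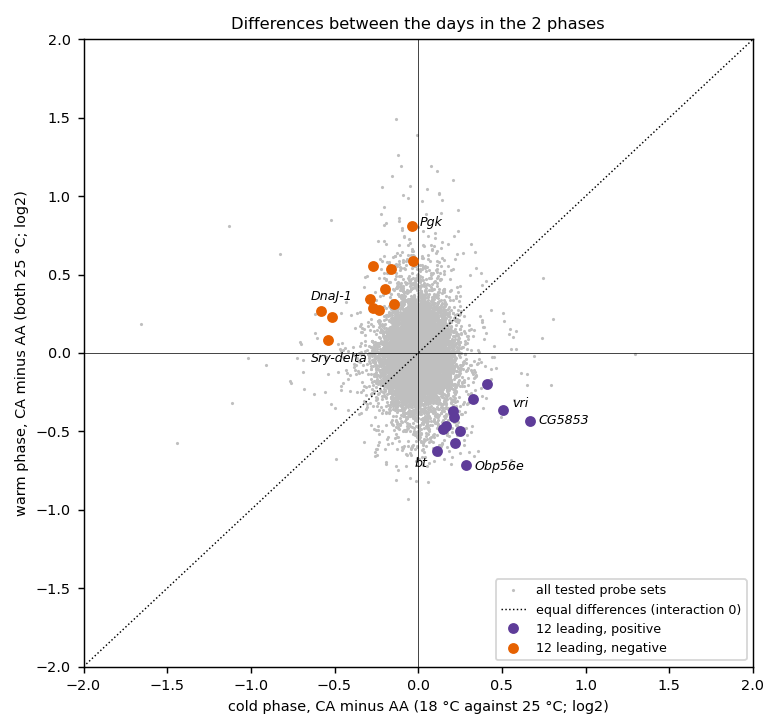
Each point is a probe set, with the difference between CA and AA in the cold phase on the x axis and in the warm phase on the y axis (both log2). The dotted diagonal marks an interaction of 0, and of the 24 leading genes, 17 had the larger difference between the days in the warm phase.

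The 12 genes with the smallest interaction p in each direction are called the leading genes. They were chosen on this contrast, so their size, sign and separation describe them and test nothing. In 23 of the 24, the cold-minus-warm difference had opposite signs on the CA and the AA day (95.8%), which held for 7649 of all 13966 probe sets (54.8%). The phase difference was the larger in size on the CA day in 22 of the 24, against 55% of all probe sets. The CA cold and CA warm arrays did not overlap in 22 of the 24 (11.1% of all probe sets), and the AA subjective cold and subjective warm arrays did not overlap in 12 (9.59% of all). Between the days, the warm-phase arrays did not overlap in 21 of the 24 (19.7% of all) and the cold-phase arrays in 16 (7.88% of all).

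To say which group mean makes the difference, the group was taken whose removal left the other 3 means closest together, and it was named where its gap to the nearest of them exceeded the range of those 3. By this rule the CA warm phase stood apart in 10 of the 24 leading genes, the CA cold phase in 6, the AA subjective warm phase in 1 and the AA subjective cold phase in 0, and in 7 no group did. Over all tested probe sets the shares were 21.3% for the CA warm phase, 11% for the CA cold phase, 16% for the AA subjective warm phase, 8.48% for the AA subjective cold phase and 43.2% for none. Among the 1104 probe sets with an unadjusted p under 0.05, the CA warm phase stood apart in 364 (33%) and the CA cold phase in 104 (9.42%). When the gap had to exceed 2 times the range, 5 of the 24 leading genes kept a named group. Of the 24 leading genes, 10 had their lowest reading on the CA 18-h array and 6 their highest. Of all 10844 genes, 1534 had their lowest reading on it and 2244 their highest. Leaving that array out, all 24 kept their sign, with values between 0.51 and 0.95 for the positive genes and between -0.89 and -0.46 for the negative ones.

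**Figure D2:**
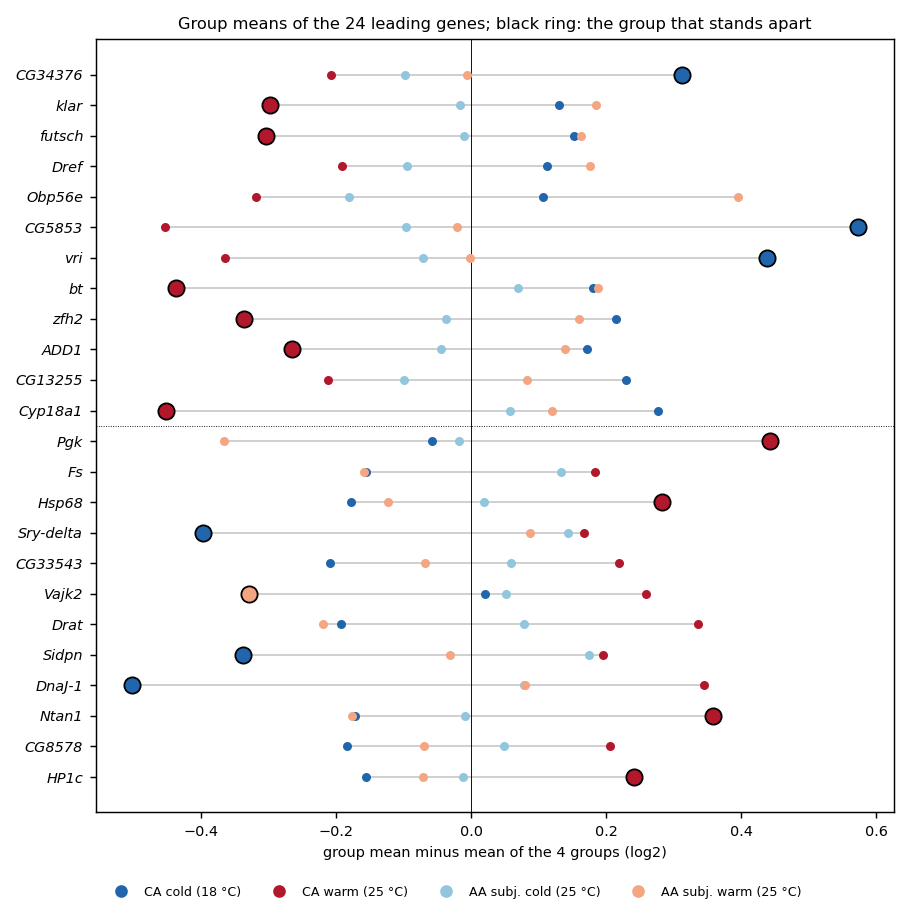
For each leading gene (rows, positive interactions above the dotted line and negative below), the x axis gives the mean of each of the 4 groups of 3 arrays minus the mean of the 4 groups (log2). A black ring marks the group that stands apart by the rule, which is the CA warm phase in 10 genes, the CA cold phase in 6 and the AA subjective warm phase in 1.

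Among the positive genes, the CA cold phase stood apart, as the highest mean, in CG34376, CG5853 and vri. CG34376 had the smallest p of all genes. It read 6.40, 6.49 and 6.41 at 2, 6 and 10 h and 5.86, 5.92 and 5.96 at 14, 18 and 22 h of the CA day, and 6.08, 5.99 and 6.0 and then 6.12, 6.17 and 6.05 at the same hours of the AA day. The 3 readings at 18 °C lay above the other 9, which spanned 5.86 to 6.17, and the interaction was 0.61 (SE 0.09, adjusted p = 0.252). Its other 2 probe sets gave -0.16 and 0.04. CG5853 gave one of the largest interactions of the leading genes, 1.10 (SE 0.22, adjusted p = 0.314). It read 7.91, 7.62 and 8.07 in the CA cold phase, 7.11, 6.53 and 6.87 in the CA warm phase, 6.92, 7.43 and 7.23 in the AA subjective cold phase and 7.20, 7.23 and 7.38 in the AA subjective warm phase. The CA cold readings were the 3 highest of the 12, and 2 of the 3 CA warm readings were the lowest.

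In 6 positive genes the CA warm phase stood apart as the lowest mean: klar, futsch, bt, zfh2, ADD1 and Cyp18a1. Klarsicht (klar) is an outer nuclear membrane protein that ties nuclei and organelles to microtubule motors. It read 6.39, 6.34 and 6.51 in the CA cold phase and 6.05, 5.84 and 6.05 in the CA warm phase, against 6.30, 6.25 and 6.24 and 6.53, 6.40 and 6.47 in the AA subjective cold and subjective warm phases. All 3 CA warm readings lay below the other 9, and the interaction was 0.63 (SE 0.11, adjusted p = 0.252). A second probe set of klar gave 0.20. The microtubule-associated protein futsch, a neuronal relative of MAP1B, read 4.04, 4.01 and 4.11 in the CA warm phase, below its 4.55, 4.35 and 4.63 in the CA cold phase and below every AA reading (4.36, 4.31 and 4.37, then 4.47, 4.53 and 4.57). Its interaction was 0.63 (SE 0.11), but its other 2 probe sets, both brighter, gave -0.15 and -0.03. Projectin, the giant muscle protein encoded by bent (bt), averaged 4.72 ± 0.13 in the CA cold phase and 4.10 ± 0.17 in the CA warm phase (SD, n = 3 in each group here and below), and 4.61 ± 0.22 and 4.73 ± 0.031 in the AA subjective cold and warm phases. Cyp18a1, the cytochrome P450 that inactivates ecdysone, averaged 6.83 ± 0.17, 6.10 ± 0.27, 6.61 ± 0.19 and 6.68 ± 0.059 in the same groups. The CA warm phase minus the AA subjective warm phase was -0.62 in bt and -0.57 in Cyp18a1, and all 3 CA warm readings of both genes lay below the other 9. The interaction was 0.74 (SE 0.16, adjusted p = 0.435) in bt and 0.79 (SE 0.19, adjusted p = 0.485) in Cyp18a1. A second probe set of bt, dim on every array, gave 0.005. The zinc-finger homeodomain gene zfh2 averaged 3.60 ± 0.20 in the CA warm phase, against 4.15 ± 0.22, 3.90 ± 0.10 and 4.09 ± 0.079 in the CA cold, AA subjective cold and AA subjective warm phases, an interaction of 0.75 (SE 0.17). The heterochromatin-associated ADD1 averaged 3.64 ± 0.22 in the CA warm phase, against 4.08 ± 0.12, 3.87 ± 0.068 and 4.05 ± 0.066 in these groups, an interaction of 0.62 (SE 0.14). Both were dim, with 2 CA warm readings each under the 20th percentile of their array. A second probe set of zfh2, dim on every array, gave 0.35.

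No group stood apart in Dref, Obp56e and CG13255. Dref, a transcription factor of replication genes, averaged 4.76 ± 0.11 in the CA cold phase and 4.45 ± 0.049 in the CA warm phase. In the AA subjective cold and warm phases it averaged 4.55 ± 0.094 and 4.82 ± 0.055, so that the order of the phases was opposite on the 2 days. The interaction was 0.58 (SE 0.11, adjusted p = 0.3), and a second probe set, dim on every array, gave 0.03. The odorant-binding protein gene Obp56e read 8.16, 8.16 and 8.23 and then 8.16, 7.57 and 7.54 on the CA day, and 7.73, 8.06 and 7.89 and then 8.60, 8.34 and 8.48 on the AA day. Its AA subjective warm readings were the 3 highest of all, and its CA 14-h reading stayed with the cold phase. The interaction was 1.002 (SE 0.20, adjusted p = 0.314), and leaving out CA 14 h alone made it 1.20, with an adjusted p of 0.0118. CG13255 averaged 7.62 ± 0.042 in the CA cold phase, 7.18 ± 0.20 in the CA warm phase, 7.29 ± 0.16 in the AA subjective cold phase and 7.47 ± 0.033 in the AA subjective warm phase (interaction 0.62, SE 0.14).

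**Figure D3:**
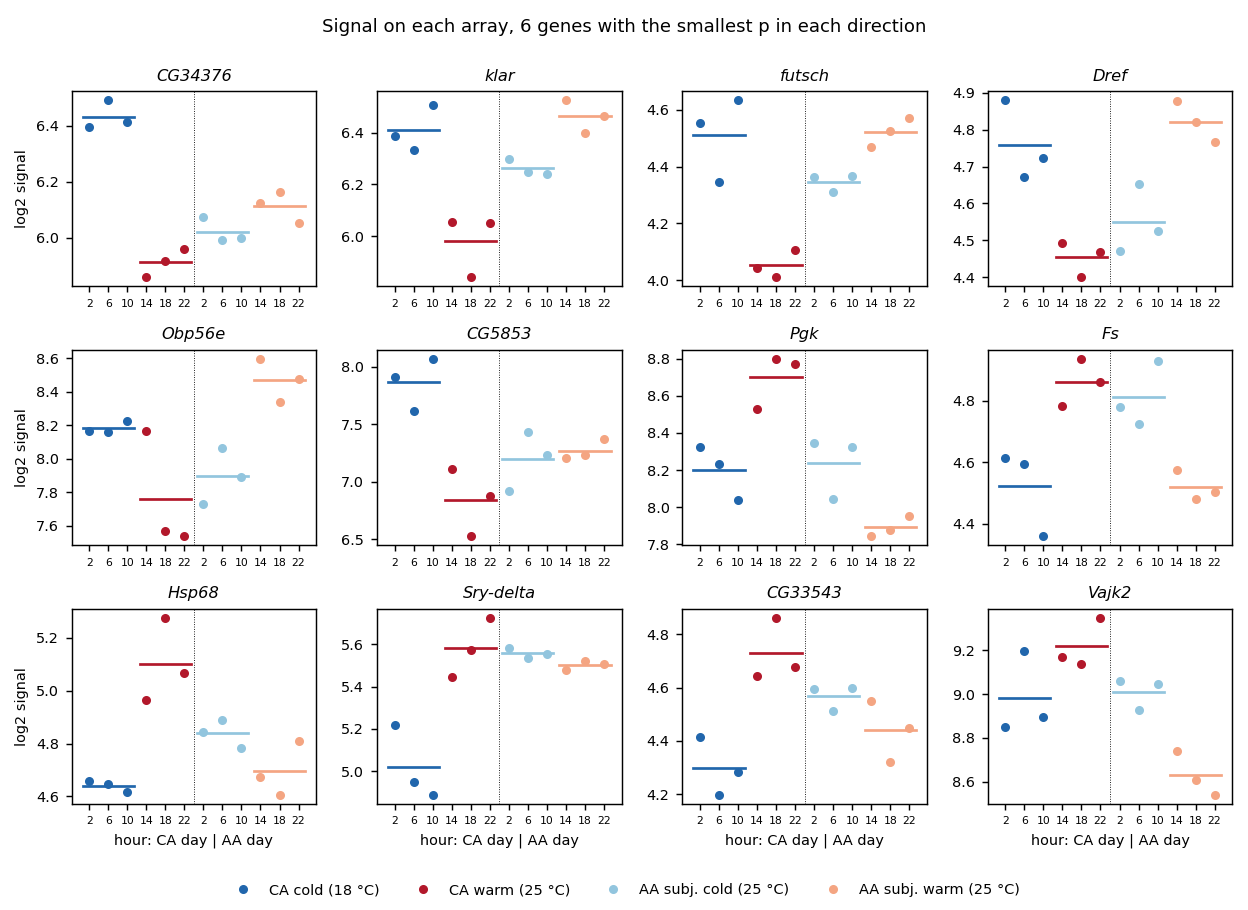
Log2 signal of 12 leading genes on each of the 12 arrays (points), in time order with the CA day left of the dotted line and the AA day right of it; bars are means of the 3 arrays of a group. The 3 CA warm readings of klar and futsch lie below the other 9 arrays, those of Pgk and Hsp68 lie above them, and CG34376 and Sry-delta stand apart in the CA cold phase.

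Pgk, the phosphoglycerate kinase of glycolysis, led the negative genes with an interaction of -0.85 (SE 0.15, adjusted p = 0.252). It read 8.33, 8.23 and 8.04 in the CA cold phase and 8.53, 8.80 and 8.77 in the CA warm phase, against 8.35, 8.04 and 8.32 in the AA subjective cold phase and 7.84, 7.88 and 7.95 in the AA subjective warm phase. The 3 CA warm readings were the highest of the 12 and the 3 AA subjective warm readings the lowest, while the cold phases of both days overlapped. The warm-phase difference between the days, 0.81 (SE 0.10), passed the test (limma, adjusted p = 0.0202), so Pgk was higher at the warm hours after a cold phase than at the same hours of the constant day. The other probe set that passed in the warm phase, 143364_at, carries no symbol in the tables used here. It read 7.14, 7.32 and 7.37 in the CA warm phase, against 6.49, 6.06 and 6.14 in the AA subjective warm phase, a difference of 1.04 (SE 0.13, adjusted p = 0.0202). Here the AA subjective warm phase stood apart, since the CA cold readings were 7.02, 6.97 and 7.05 and the AA subjective cold readings 6.98, 6.69 and 7.20. Neither call was made without the CA 22-h, the AA 18-h or the AA 22-h array, without the 2-h and 14-h arrays of both days, or without limma's moderation (0 calls each), and 1 call was left without AA 14 h.

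The CA warm phase was also the highest mean, and stood apart, in Hsp68, Ntan1 and HP1c. Hsp68, a heat-inducible member of the Hsp70 family, read 4.66, 4.65 and 4.62 in the CA cold phase and 4.96, 5.28 and 5.07 in the CA warm phase, against 4.84, 4.89 and 4.78 and 4.67, 4.61 and 4.81 in the AA subjective cold and warm phases. Its 3 CA warm readings lay above the other 9 (interaction -0.60, SE 0.12, adjusted p = 0.314). Ntan1, which removes the amide from N-terminal asparagines, averaged 6.36 ± 0.22 in the CA warm phase against 5.82 ± 0.060 in the AA subjective warm phase. HP1c, a member of the heterochromatin protein 1 family, averaged 5.84 ± 0.075 against 5.53 ± 0.044 in these groups. The means of the cold phases, 5.83 ± 0.19 on CA and 5.99 ± 0.17 on AA for Ntan1 and 5.44 ± 0.15 and 5.58 ± 0.037 for HP1c, lay closer together. The interactions were -0.70 (SE 0.17) and -0.46 (SE 0.12).

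The CA cold phase was the lowest mean, and stood apart, in Sry-delta, Sidpn and DnaJ-1. The zinc-finger gene Sry-delta read 5.22, 4.95 and 4.89 in the CA cold phase, while the CA warm readings were 5.45, 5.58 and 5.73 and the AA readings 5.58, 5.54 and 5.56, then 5.48, 5.52 and 5.51. The 6 AA readings lay between 5.48 and 5.58, and the interaction was -0.62 (SE 0.13, adjusted p = 0.367). Sidpn, a basic helix-loop-helix gene related to deadpan, averaged 6.93 ± 0.038 in the CA cold phase, 7.46 ± 0.26 in the CA warm phase, 7.44 ± 0.23 in the AA subjective cold phase and 7.23 ± 0.041 in the AA subjective warm phase, an interaction of -0.74 (SE 0.18). DnaJ-1, an Hsp40 co-chaperone, read 6.77, 6.68 and 7.08 in the CA cold phase and 7.74, 7.97 and 7.36 in the CA warm phase, against 7.51, 7.48 and 7.28 and 7.37, 7.36 and 7.55 on the AA day. Its AA phase means were 7.42 and 7.42, so that its interaction of -0.85 (SE 0.20) came from the CA day. With a 24-h cosine and sine in place of the phase means, the change of the daily profile between the days passed the test for DnaJ-1 (limma F test, adjusted p = 0.0155).

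Only in Vajk2, among the leading genes, did the AA subjective warm phase stand apart. It read 8.74, 8.61 and 8.54 there, against 8.85, 9.20 and 8.89 and 9.17, 9.14 and 9.35 in the CA cold and warm phases and 9.06, 8.93 and 9.05 in the AA subjective cold phase. Its interaction was -0.62 (SE 0.14, adjusted p = 0.451). Both further probe sets had the same sign, at -0.22 and -0.38. The CA warm phase stood apart in the first of them and the AA subjective warm phase in the second. In Fs, Drat, CG33543 and CG8578 no group stood apart. Fs encodes follistatin, a secreted antagonist of activins, and averaged 4.52 ± 0.14 in the CA cold phase, 4.86 ± 0.076 in the CA warm phase, 4.81 ± 0.11 in the AA subjective cold phase and 4.52 ± 0.050 in the AA subjective warm phase, an interaction of -0.63 (SE 0.12, adjusted p = 0.3) that its other probe set, at 0.00, did not show. Drat averaged 8.65 ± 0.066, 9.18 ± 0.19, 8.92 ± 0.24 and 8.62 ± 0.21 in these groups, with an interaction of -0.83 (SE 0.19). CG33543 averaged 4.30 ± 0.11, 4.73 ± 0.12, 4.57 ± 0.048 and 4.44 ± 0.12 (interaction -0.56, SE 0.12), and its other probe set gave -0.36. CG8578 averaged 3.81 ± 0.029, 4.20 ± 0.18, 4.05 ± 0.092 and 3.93 ± 0.064 (interaction -0.51, SE 0.13). In all 4 genes the CA warm phase was the highest mean. Over the leading genes, 9 had at least 1 other probe set, 12 in all, of which 8 had the sign of the leading one and 1 an unadjusted p under 0.05.

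The clock genes come next, with the repressors and activators of the second loop first. Of 15 core clock genes measured, 11 had a positive and 4 a negative interaction (51% of all genes were positive), with a median of 0.14 beside 0.00 over all genes. At an unadjusted p under 0.05 there were 3 positive (vri, Pdp1 and tws) and 2 negative ones (cry and Clk), where 4.06% of all genes were positive and 3.44% negative at that threshold. After adjustment 0 passed in limma. When CA 18 h was left out the median was 0.09, and 2 of the 5, vri and cry, were still under 0.05.

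The repressor gene vri read 9.09, 8.83 and 9.07 at 2, 6 and 10 h and 8.32, 7.86 and 8.40 at 14, 18 and 22 h of the CA day, and 8.32, 8.57 and 8.57 and then 8.58, 8.53 and 8.56 on the AA day. The 3 readings at 18 °C were the highest of the 12, no CA warm reading reached the AA subjective warm readings, and the rule named the CA cold phase as the group apart. Its interaction was 0.87 (SE 0.18, adjusted p = 0.336), or 0.71 with CA 18 h left out. Pdp1, which encodes the activator that opposes VRI, read 7.44, 6.86 and 7.16 and then 6.68, 6.48 and 6.85 on the CA day and 6.83, 6.99 and 6.96 and then 7.04, 6.71 and 7.04 on the AA day. The CA warm phase stood apart as its lowest mean, and the interaction was 0.49 (SE 0.20, adjusted p = 0.609). The repressor clockwork orange (cwo) had its lowest mean in the same phase, 6.69 ± 0.17 in the CA cold phase, 6.03 ± 0.60 in the CA warm phase, 6.46 ± 0.23 in the AA subjective cold phase and 6.36 ± 0.067 in the AA subjective warm phase. Its low CA warm mean rested on the CA 18-h reading of 5.34: the interaction was 0.56 (SE 0.31) with that array and 0.22 without it, and a second probe set gave -0.14.

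Clk, the target of VRI and PDP1, ran the other way, with 3.83, 3.38 and 3.61 in the CA cold phase and 3.80, 3.92 and 4.05 in the CA warm phase, against 4.13, 4.17 and 4.38 and 4.24, 4.04 and 4.30 in the AA subjective cold and warm phases. Of the 6 CA readings 5 lay below all 6 AA readings. The CA cold phase was the lowest mean (interaction -0.36, SE 0.17, adjusted p = 0.629). Its readings at CA 6 and 10 h were dim, under the 20th percentile of their array. The blue-light receptor cryptochrome (cry) also gave a negative value, -0.62 (SE 0.20, adjusted p = 0.574). It read 7.53, 7.05 and 6.94 in the CA cold phase and 7.33, 7.85 and 7.70 in the CA warm phase, against 7.58, 7.54 and 7.49 and 7.30, 7.40 and 7.41 on the AA day, where the readings of the 6 hours lay closer together. The CA readings at 2 and 14 h lay between the low ones at 6 and 10 h and the high ones at 18 and 22 h.

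In per, the phase difference had the same sign on both days. It read 7.36, 8.01 and 7.91 in the CA cold phase and 7.09, 6.46 and 7.05 in the CA warm phase, against 7.02, 6.67 and 7.35 in the AA subjective cold phase and 6.45, 6.25 and 6.45 in the AA subjective warm phase. Cold exceeded warm by 0.90 on the CA day and by 0.63 on the AA day, and the interaction was 0.27 (SE 0.29, adjusted p = 0.845), or 0.06 with CA 18 h left out. The kinase gene discs overgrown (dco) had phase differences of 0.37 on CA and 0.37 on AA, an interaction of 0.00 (SE 0.24). Twins (tws), a regulatory subunit of the phosphatase that acts on PER, gave 0.40 (SE 0.17) and its second probe set 0.23. The values of cyc, jet, slmb, wdb, Pdf and Pdfr lay between -0.15 and 0.17, all with an unadjusted p above 0.05.

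The mutated gene tim was read by 3 probe sets that did not show the same pattern. The brightest gave 0.14 (SE 0.18), with readings of 7.27 to 7.79 on all arrays. The probe set 151485_s_at read 5.97, 6.10 and 6.24 in the CA cold phase and 5.25, 5.69 and 5.50 in the CA warm phase, against 5.47, 5.28 and 5.13 and 5.36, 5.25 and 5.18 on the AA day. Its 3 readings at 18 °C were the highest of the 12, and the interaction was 0.59 (SE 0.17, adjusted p = 0.574). The dim probe set 151484_i_at read 2.41, 3.54 and 4.10 in the CA cold phase and between 1.88 and 2.23 on the 9 arrays at 25 °C, and 11 of the 12 readings were under the 20th percentile of their array. Its interaction was 1.30 (SE 0.40, adjusted p = 0.574). Without the CA 2-h array, the lowest at 18 °C, it was 1.77 and passed the test (adjusted p = 0.0147). None of the arrays tells whether the mutation itself alters these probe sets.

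**Figure D4:**
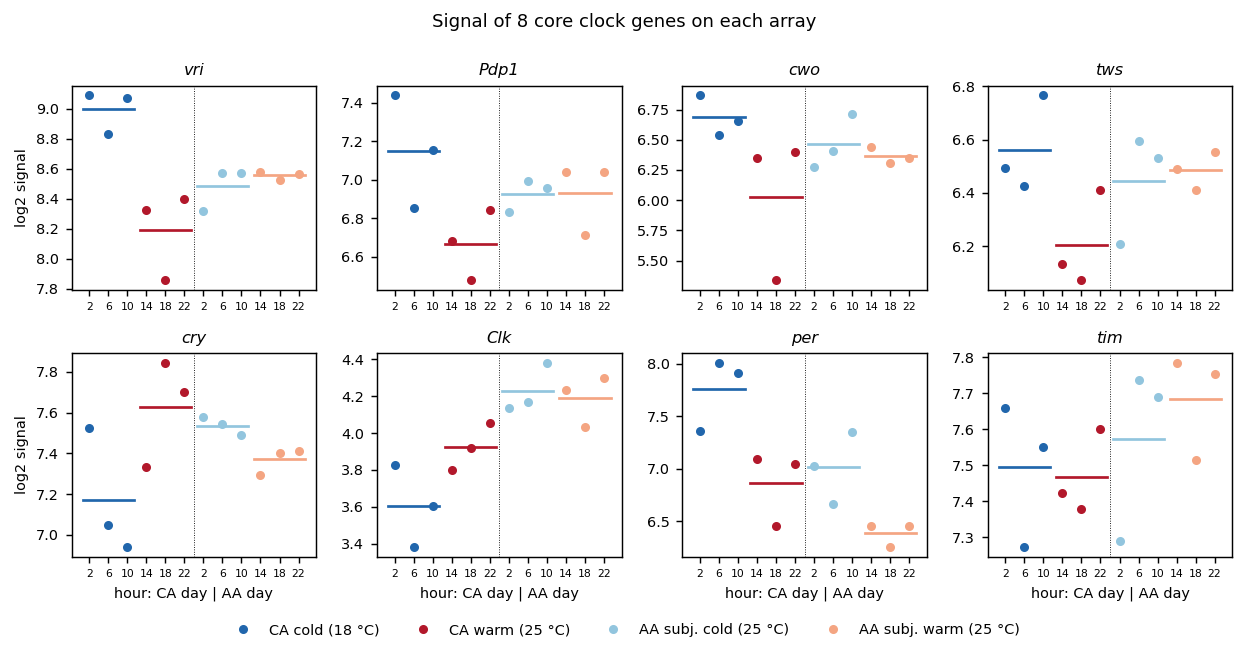
Log2 signal of 8 core clock genes on each of the 12 arrays (points), with the CA day left of the dotted line and the AA day right of it; bars are means of the 3 arrays of a group. In vri and Pdp1 the 2 CA phases lie on either side of AA levels that hardly differ. In cry and Clk the CA cold phase is the lower CA phase, and both CA means of Clk lie below its AA means. In per the cold phase is higher on both days.

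Chaperones were mostly negative. Of 31 heat shock proteins and chaperones measured, 25 had a negative and 6 a positive interaction, with a median of -0.29 beside 0.00 over all genes. Under an unadjusted p of 0.05 were 11 negative and 0 positive members (35.5% of the list, against 7.5% of all genes), and 0 passed after adjustment in limma. The list median of the phase difference was -0.21 on the CA day and -0.02 on the AA day. The CA cold phase stood apart in 10 of the 31, the CA warm phase in 7, the AA subjective cold phase in 2 and the AA subjective warm phase in 1. Relative to its mean, the median member stood at -0.01, -0.17 and -0.14 at 2, 6 and 10 h of the CA day and at 0.14, 0.14 and 0.01 at 14, 18 and 22 h, and between -0.05 and 0.03 on the AA arrays. Without the CA 18-h array the list median was -0.19 and 8 members were negative under 0.05, as were 359 of all 10844 genes. The median was the lowest of the 30 lists on all 12 arrays but not without CA 18 h, where those of glycolysis genes (-0.30) and splicing regulators (-0.22) were lower.

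The members differed in which group carried the value. Stip1, the Hop co-chaperone that links Hsp70 and Hsp90, read 6.27, 5.46 and 5.98 in the CA cold phase, while the other groups read 6.69, 6.55 and 6.78 (CA warm), 6.61, 6.57 and 6.65 (AA subjective cold) and 6.82, 6.34 and 6.69 (AA subjective warm). Its 3 readings at 18 °C lay below the other 9, as those of DnaJ-1 did (interaction -0.76, SE 0.24, adjusted p = 0.574). The Hsp90 co-chaperone Cdc37 averaged 6.66 ± 0.16 in the CA cold phase and 7.04 ± 0.26 in the CA warm phase, against 6.87 ± 0.031 and 6.74 ± 0.10 on the AA day. The mitochondrial chaperonin Hsp60A averaged 8.44 ± 0.32 and 9.06 ± 0.30 on the CA day and 8.76 ± 0.13 and 8.64 ± 0.14 on the AA day. Of the 8 subunits of the cytosolic chaperonin CCT on the list all were negative, and CCT3 (-0.69, SE 0.22) and CCT5 (-0.34, SE 0.15) were under an unadjusted p of 0.05. The small heat shock protein Hsp26 read 5.74 at CA 18 h, its highest value, and its interaction of -0.41 was -0.22 without that array. The constitutive Hsp70 family member Hsc70-4 had the most negative value of the list, -0.90 (SE 0.27, adjusted p = 0.574), from another group. It read 9.65, 9.23 and 9.23 in the AA subjective warm phase, against 10.60, 10.51 and 10.48 and 10.66, 9.88 and 10.63 in the CA cold and warm phases and 10.37, 10.18 and 10.67 in the AA subjective cold phase. The heat shock factor gene Hsf and p23 were among the positive members, at 0.12 and 0.16.

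A probe set without a symbol, 143198_at, had the same shape as DnaJ-1 and was named after its values were seen. It read 8.43, 8.03 and 8.71 in the CA cold phase and 10.07, 10.22 and 9.16 in the CA warm phase, against 9.21, 9.20 and 9.24 and 9.16, 8.997 and 9.39 on the AA day. All 3 readings at 18 °C lay below the AA readings, while the CA warm phase reached above 10 at 14 and 18 h. Its interaction was -1.46 (SE 0.32, adjusted p = 0.435). With the 24-h cosine and sine, the change of its daily profile between the days passed the test (limma F test, adjusted p = 0.0155). This probe set was 1 of the 2 that passed, DnaJ-1 being the other.

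Glycolytic genes lay on the same side as Pgk. Of 10 measured, 8 had a negative interaction and the median was -0.22 (-0.30 without the CA 18-h array). Pgk, Pglym78, Eno and Ald1 were negative and Gpdh1 positive at an unadjusted p under 0.05 (50% of the list, against 7.5% of all genes), and 0 passed after adjustment. The list median of the difference between the days was 0.22 in the warm phase and -0.02 in the cold phase. Phosphoglycerate mutase (Pglym78) read 10.28, 10.34 and 10.54 in the CA warm phase and 10.09, 10.10 and 10.13 in the AA subjective warm phase, with no overlap, and its cold phases overlapped (10.12, 10.27 and 10.11 on CA, 10.19, 10.19 and 10.32 on AA). Enolase (Eno) averaged 10.33 ± 0.20 in the CA warm phase against 9.99 ± 0.14 in the AA subjective warm phase. Glycerol-3-phosphate dehydrogenase (Gpdh1), which draws triose phosphate off towards glycerol lipids, averaged 8.67 ± 0.13 in the CA cold phase, the group that stood apart, 8.42 ± 0.22 in the CA warm phase, 8.23 ± 0.20 in the AA subjective cold phase and 8.44 ± 0.088 in the AA subjective warm phase. Of the sugar-responsive regulators, Mondo gave 0.50 (SE 0.15) with the CA warm phase lowest, and sug gave -0.42 (SE 0.15) with the CA cold phase lowest.

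Lipid genes were positive in 17 of 24 measured, with a median of 0.16. Positive at an unadjusted p under 0.05 were apolpp, Apoltp, ACC, Lip4, Pect, bmm and mdy, and negative was Lsd-2 (33.3% of the list, against 7.5% of all genes), and 0 passed after adjustment. The CA warm phase stood apart in 13 of the 24. Apolpp, the precursor of the lipophorin that carries lipids in the blood, read 10.80, 10.66 and 10.83 in the CA cold phase and 10.17, 9.77 and 10.53 in the CA warm phase, against 10.44, 10.69 and 10.55 and 10.76, 10.65 and 10.58 on the AA day. The lowest 2 of its 12 readings were CA 14 h and 18 h (interaction 0.70, SE 0.21, adjusted p = 0.574), and its second probe set gave 0.49. The lipid transfer particle gene Apoltp averaged 8.30 ± 0.14 in the CA cold phase, 7.95 ± 0.14 in the CA warm phase, 8.13 ± 0.11 in the AA subjective cold phase and 8.22 ± 0.12 in the AA subjective warm phase. Acetyl-CoA carboxylase (ACC), the entry to fatty acid synthesis, stood apart in the CA cold phase, at 8.82 ± 0.18 against 8.48 ± 0.10 in the AA subjective cold phase. Brummer (bmm), the triglyceride lipase of the lipid droplet, gave 0.37 (SE 0.15). The droplet protein Lsd-2 ran the other way, with 7.70, 6.72 and 6.90 in the CA cold phase and 7.21, 8.46 and 7.63 in the CA warm phase, against 7.33, 6.66 and 6.70 and 6.63, 6.67 and 6.69 on the AA day. Single arrays weigh on this list: without CA 18 h the values of mdy, Pect and Lsd-2 were 0.43, 0.43 and -0.55 in place of 0.73, 0.68 and -0.90, and without CA 22 h the list median was 0.06. Without CA 18 h, 5 members were positive and 0 negative under 0.05, against 336 and 359 of all 10844 genes.

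Immune genes of the Toll and Imd pathways were positive in 20 of 27 measured, with a median of 0.14. The 7 with an unadjusted p under 0.05 were all positive (25.9% of the list, against 4.06% of all genes positive at that threshold), and they included the Toll ligand spz, the receptor Tl, the adaptor tub, the kinase gene IKKbeta and the NF-kB factors dl and Rel, with the recognition protein PGRP-SB1. Leaving out CA 18 h, 5 were positive and 1 negative under 0.05, against 336 and 359 of all 10844 genes. After adjustment 0 passed with or without that array. The adaptor tube (tub) read 6.98, 6.98 and 7.18 in the CA cold phase and 6.85, 6.41 and 6.69 in the CA warm phase, against 6.68, 7.13 and 6.98 and 7.11, 7.03 and 7.09 on the AA day, and its CA warm phase stood apart as the lowest (interaction 0.54, SE 0.18). Toll itself (Tl) averaged 5.07 ± 0.11, 4.86 ± 0.072, 4.88 ± 0.051 and 4.97 ± 0.12 in the CA cold, CA warm, AA subjective cold and AA subjective warm phases. In spz the CA 18-h reading of 4.30 was the lowest, and the interaction was 0.66 with this reading and 0.36 without it. The antimicrobial peptide genes gave wider errors, such as 0.58 (SE 0.38) for Metchnikowin (Mtk) and -0.07 (SE 0.30) for Drosomycin (Drs).

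Odorant-binding protein genes were positive in 26 of 37, with a median of 0.10. At an unadjusted p under 0.05 were Obp56e, Obp56g, Obp57c, Os-C, Obp56d and Obp56a, all positive (16.2% of the list, against 4.06% of all genes). Leaving out CA 18 h gave 7 positive members, against 336 positive of all 10844 genes. Obp56a, Obp56d, Obp56e and Obp56g are neighbours of 1 gene cluster, and whether their probe sets share targets was not tested. Obp56d read 10.77, 10.89 and 10.91 and then 10.87, 10.87 and 10.42 on the CA day, and 10.60, 10.73 and 10.56 and then 10.97, 10.76 and 10.88 on the AA day. In Obp56g and Obp57c the CA 18-h array was the lowest, at 6.29 and 4.79, and the interactions of 0.90 and 0.89 were 0.53 and 0.43 without it. In the takeout family of small-ligand carriers, 14 of 16 members were positive with a median of 0.10. Only Jhbp3 had an unadjusted p under 0.05 (6.25% of the list, near the 7.5% of all genes). Jhbp3 read 9.65, 9.46 and 9.59 in the AA subjective warm phase, the group that stood apart, against 9.32, 8.75 and 9.07 in the CA warm phase.

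**Figure D5:**
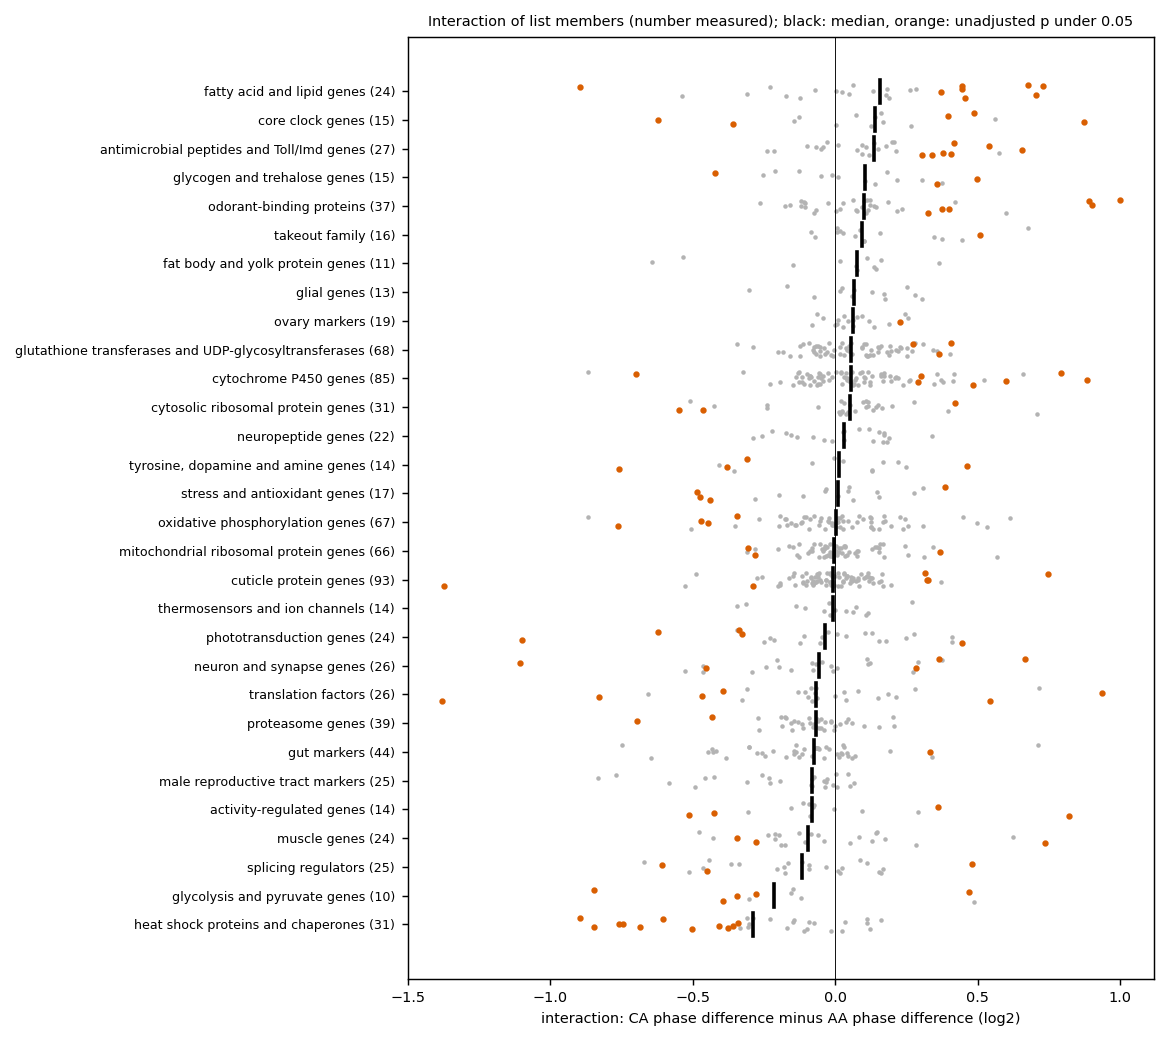
Interaction (x axis, log2) of the measured members of each of the 30 gene lists (rows, number of members in brackets), ordered by their median (black bar); orange points have an unadjusted p under 0.05. On all 12 arrays chaperones (median -0.29) and glycolysis genes (-0.22) lie at the bottom and lipid genes (0.16) and core clock genes (0.14) at the top, an order that changed when CA 18 h was left out.

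Among detoxifying and redox enzymes, 53 of 85 cytochrome P450 genes were positive (median 0.06), and 6 positive and 1 negative had an unadjusted p under 0.05 (8.24%, near the 7.5% of all genes, and 3 positive and 1 negative without the CA 18-h array). The negative one, Cyp6w1, read 8.23, 7.83 and 7.81 in the CA cold phase against 8.29, 8.62 and 8.62, 8.41, 8.69 and 8.59 and 8.33, 8.34 and 8.58 in the CA warm, AA subjective cold and AA subjective warm phases. Of 17 stress and antioxidant genes the mitochondrial quality kinase Pink1 (-0.48, SE 0.13), thioredoxin reductase Trxr1 (-0.49, SE 0.13) and the superoxide dismutase Sod2 (-0.44, SE 0.14) were negative under 0.05. Trx2 was positive under 0.05 (0.38, or 0.22 when CA 18 h was left out). Together these genes were 23.5% of the list, against 7.5% of all genes. Trxr1 averaged 8.53 ± 0.11 in the CA warm phase against 8.14 ± 0.068 in the AA subjective warm phase, and 8.25 ± 0.15 on CA against 8.35 ± 0.11 on AA in the cold phase.

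Neuronal and visual genes had medians near 0 (-0.06 over 26 neuron and synapse genes and -0.04 over 24 phototransduction genes) with large values in both directions. Leaving out CA 18 h, these medians were -0.02 and 0.01. Ggamma30A, the gamma subunit of the visual G protein, read 7.59, 8.58 and 8.08 in the CA warm phase, the group that stood apart, against 7.03, 7.05 and 7.14 in the AA subjective warm phase, and its cold phases read 7.66, 6.85 and 7.17 on CA and 7.49, 7.25 and 7.21 on AA. Its interaction was -1.10 (SE 0.31, adjusted p = 0.574), or -0.85 without the CA 18-h array, its highest reading. The synaptic vesicle protein nSyb read 6.57, 7.19 and 7.47 in the CA warm phase against 6.45, 6.04 and 6.09 in the AA subjective warm phase, with an interaction of -1.11 (SE 0.36), whereas the vesicle-priming gene unc-13 gave 0.67 (SE 0.23). The dopamine-route gene speck, whose product acetylates dopamine, averaged 6.44 ± 0.34 in the CA cold phase and 7.17 ± 0.46 in the CA warm phase, against 6.87 ± 0.066 and 6.85 ± 0.10 on the AA day. Its value of -0.76 was -0.50 without the CA 18-h array. Ebony (e), which conjugates dopamine to beta-alanine, also stood apart in the CA cold phase, at 6.38 ± 0.18 against 6.64 ± 0.14 in the AA subjective cold phase (interaction -0.31, SE 0.13). The tyrosine-degrading enzymes gave opposite signs, 0.46 (SE 0.15) for Hpd and -0.38 (SE 0.17) for Tat. Of the 14 tyrosine, dopamine and amine genes, 7 were positive and 7 negative. Neuropeptide genes, glial genes and thermosensors and ion channels had 0 members under an unadjusted p of 0.05, of 22, 13 and 14 measured. Leaving out CA 18 h, 2 thermosensor and ion channel genes were negative at that threshold, and still 0 neuropeptide and 0 glial genes.

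Protein synthesis and breakdown genes held several members of the shape of Pgk, with the CA warm phase above the AA subjective warm phase. The elongation factor eEF1alpha2 read 7.67, 8.93 and 8.06 in the CA warm phase against 7.31, 6.79 and 6.77 in the AA subjective warm phase, and 7.67, 6.62 and 6.81 on CA and 7.64, 6.96 and 6.86 on AA in the cold phase. The wide spread of these readings gave its interaction of -1.38 an SE of 0.46, and the interaction was -1.03 when CA 18 h, its highest reading, was left out. The initiation factor gene eIF3d1 gave -0.47 (SE 0.15) and eIF1 0.94 (SE 0.38), the second at 0.60 when CA 18 h was left out. Of 26 translation factors 11 were positive and 15 negative, with 2 and 4 of them under an unadjusted p of 0.05 (23.1% of the list, against 7.5% of all genes), or 0 and 4 when CA 18 h was left out. The proteasome ATPase subunit Rpt3 averaged 6.31 ± 0.28 in the CA warm phase against 5.65 ± 0.15 in the AA subjective warm phase (interaction -0.70, SE 0.19). Of 39 proteasome genes 30 were negative, with a median of -0.07, or -0.00 when CA 18 h was left out, and 2 (5.13%) had an unadjusted p under 0.05. The ribosomal protein genes RpLP0 (-0.55, SE 0.18) and RpL17 (-0.46, SE 0.14) were negative, but 24 of the 31 cytosolic ribosomal protein genes were positive, with a median of 0.05, or 0.10 when CA 18 h was left out. Under an unadjusted p of 0.05 were these 2 and RpL36A, which was positive at 0.42 (9.68% of the list, against 7.5% of all genes). When CA 18 h was left out, 0 positive and 5 negative members were under 0.05, against 336 and 359 of all 10844 genes. The AA subjective warm phase stood apart in 13 of these 31 genes. Of 67 oxidative phosphorylation genes, 34 were positive and 4 (5.97%), all negative, were under 0.05, or 7 negative when CA 18 h was left out.

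Activity-regulated genes, which neurons transcribe after firing, were negative in 10 of 14 (median -0.08, or -0.03 when CA 18 h was left out). At an unadjusted p under 0.05 were 2 in each direction (28.6% of the list, against 7.5% of all genes). Arc1, which encodes a capsid-forming protein related to mammalian Arc, averaged 5.43 ± 0.12 in the CA cold phase and 5.67 ± 0.21 in the CA warm phase, against 5.54 ± 0.17 and 5.36 ± 0.063 on the AA day. Stripe (sr), the fly relative of EGR factors, gave 0.36 (SE 0.13), and CG13868 gave 0.82 (SE 0.24) with the CA warm phase apart. Of 24 muscle genes 15 were negative (median -0.10, or -0.04 when CA 18 h was left out). Tropomyosin 2 (Tm2) averaged 6.39 ± 0.17 in the CA warm phase against 6.14 ± 0.12 in the AA subjective warm phase and the myosin light chain gene Mlc2 10.88 ± 0.10 against 10.69 ± 0.058, opposite in sign to bt. Cuticle protein genes were split at 41 positive and 52 negative, with 6 (6.45%) under an unadjusted p of 0.05 and 3 when CA 18 h was left out, and glutathione transferases and UDP-glycosyltransferases at 43 positive and 25 negative, with 3 (4.41%).

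The AA subjective warm phase stood apart in 10 of 25 splicing regulators, against 16% of all probe sets, while the CA cold and CA warm phases stood apart in 3 each, the AA subjective cold phase in 1 and no group in 8. At an unadjusted p under 0.05 were 3 of the 25 (12%, against 7.5% of all genes), or 5 when CA 18 h was left out. The median interaction was -0.12, or -0.22 with CA 18 h left out and -0.015 with AA 10 h left out. Relative to each gene's mean, the list median stood at 0.25 at both CA 22 h and AA 10 h and at -0.24 at AA 18 h. The list median of the difference between the days was 0.15 in the warm phase. The U1 component snRNP-U1-70K read 6.44, 6.07 and 6.16 in the AA subjective warm phase, below its 7.08, 6.90 and 6.92, 6.80, 6.54 and 7.01 and 6.89, 6.64 and 7.04 in the CA cold, CA warm and AA subjective cold phases. The gene Chchd2, of a mitochondrial protein family, had 8.90, 8.40 and 8.34 in the AA subjective warm phase against 9.93, 9.16 and 10.03 in the CA warm phase, and 9.95, 10.12 and 9.79 on CA and 9.88, 9.47 and 10.18 on AA in the cold phase. It was chosen after its values were seen, as were jdp, CG1648 and CG13928, whose AA subjective warm phase also stood apart. In these 3 genes, and in Chchd2 as well, the arrays of CA 6 h, CA 22 h and AA 10 h were the highest together. For example, jdp read 8.45, 8.62 and 8.60 there, against 7.23, 6.72 and 6.66 in the AA subjective warm phase. The interactions of -1.30 in jdp, -1.28 in CG1648 and -1.40 in CG13928 had SEs of 0.48 to 0.54, against 0.09 to 0.22 for the leading genes. That of Chchd2 was -1.05 (SE 0.32).

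Transcripts of other body parts differed between arrays and touch the AA subjective cold phase. Of 25 male reproductive tract markers 20 had a negative interaction (median -0.08, 0 with an unadjusted p under 0.05), and the AA subjective cold phase stood apart in 16. Relative to each gene's mean, the list median stood at 0.20 at CA 6 h, 0.22 at AA 2 h and 0.42 at AA 6 h, and between -0.16 and -0.03 on the other 9 arrays. The mean level of the 25 markers ranged from 3.93 to 4.39 over the CA cold arrays, 3.90 to 3.94 over the CA warm arrays, 3.85 to 4.79 over the AA subjective cold arrays and 3.91 to 3.99 over the AA subjective warm arrays, and 11 of the 25 averaged above the 20th percentile. The male genes Acp26Aa, Acp36DE and Mst57Dc stayed under the 20th percentile on all 12 arrays. The male genes SP and Mst98Ca, with means of 5.48 and 7.24, lay above it on all 12. Gut markers followed in part, at 0.14 at CA 6 h, 0.19 at AA 2 h and 0.10 at AA 6 h, with the AA subjective cold phase apart in 13 of 44. The serine protease Jon65Aiii, a gut marker, read 7.29, 6.999 and 6.28 in the AA subjective cold phase against 6.21, 6.84 and 6.33 in the CA cold phase. Ovary markers had a median of 0.06, and their mean level lay between 4.91 and 5.05 on all arrays. The largest interactions of the data in size, -1.94 (SE 1.55) for 143339_i_at and -1.84 (SE 1.41) for 144211_at, each annotated with several symbols, had their highest readings at CA 6 h, AA 2 h and AA 6 h. The part of these fragments in the other results was not tested.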

How the data were processed

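The authors deposited log2 signals made with RMA (background correction, quantile normalization and median polish), which the submitters' processing notes name without a version. No further normalization was applied. Platform annotation gave 12443 of 13966 probe sets 1 symbol, 327 several and 1196 none, and 12394 symbols were checked through their gene identifiers. A gene in a list was read from its brightest probe set.

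A linear model (limma 3.58.1, R 4.3.3) gave the means of the 4 groups from all arrays, with 8 residual and 5.28 prior degrees of freedom. Tests were two-sided, with Benjamini-Hochberg adjustment over 13966 probe sets and a threshold of 0.05. With 3 arrays in a group, precision is set by their number. No sequences are shown.

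The rule named 12 positive and 12 negative probe sets, those of smallest interaction p that have 1 symbol and average over 3.71 (the mean 20th percentile of the arrays). It also took every core clock gene, 2 members from every other list by smallest p, and further probe sets of all these genes. Genes outside this rule, including further list members with an unadjusted p under 0.05, were named after their values were seen. Members, lists and tests were chosen with earlier results of these data known. The alternatives were the clock hour as a block, trended and robust variances, array weights, a filter on dim probe sets, centred arrays, arrays left out, 24-h terms and no moderation.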

Additional observations from a re-analysis of the deposited data

How the results depend on the processing

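The interaction made 0 calls under every setting of the 4-group fit other than leaving out arrays; leaving out each array in turn gave 0 to 2 calls. They were the dim tim probe set 151484_i_at without CA 2 h, Obp56e and CAH5 (1.61, adjusted p = 0.0118) without CA 14 h, and 143198_at (-1.79, adjusted p = 0.0266) without CA 22 h. The 24-h cosine and sine terms gave 2. Unadjusted counts ranged from 633 without CA 10 h to 1697 without CA 14 h. For CA against AA in the cold phase the count was 1 with array weights, 1 without the 2-h and 14-h arrays, and 0 to 1 with an array left out. For the warm phase it was 8 with array weights, 0 without the 2-h and 14-h arrays, 0 without moderation and 0 to 10 with an array left out. A group stood apart in 5 of the leading genes when the gap had to exceed 2 times the range. With the clock hour as a replicate block the interaction made 0 calls (lowest adjusted p 0.506, 1156 unadjusted). Residuals of the 2 arrays of an hour correlated at -0.23 to 0.25, so hours were not treated as pairs. The block was run for the interaction and gave 0 calls of named genes.

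Of the 89 genes named by the rule, read from the probe set given for each, Obp56e passed without CA 14 h and DnaJ-1 with the 24-h terms, and of their further probe sets the dim one of tim passed without CA 2 h. Interactions near 0 changed sign in 4 clock genes. They were tim, at -0.16 without the 2-h and 14-h arrays and -0.0025 to 0.25 with an array left out; cyc, at -0.010 to 0.13; dco, at -0.20 with array weights, -0.0027 with centred arrays, -0.015 without the 2-h and 14-h arrays and -0.22 to 0.17 with an array left out; and wdb, at 0.0215 without the 2-h and 14-h arrays and -0.28 to 0.0415. The cause was not tested. The chaperone median stayed between -0.37 and -0.19 and that of glycolysis genes between -0.30 and -0.17. The core clock median ranged from 0.05 to 0.18 and the lipid median from 0.06 to 0.21.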
